A study of Mus musculus with 6 samples.

Results

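A set of 10 genes of the epithelial-mesenchymal transition and its adhesion molecules was followed in single cells of mouse oral carcinomas: the transcription factors Snai1, Snai2, Twist1, Twist2, Zeb1 and Zeb2, the cadherins Cdh1 and Cdh2, the intermediate filament gene Vim and the surface glycoprotein gene Epcam. They were taken by symbol from the gene list of the deposited matrix and are 10 of its 32285 genes. Levels are summed unique molecular identifier (UMI) counts of a class of cells, scaled to 1000000 gene UMIs of that class and written CPM. Tumors were grown in male mice by subcutaneous injection of 100000 MOC-2 cells, a mouse head and neck squamous cell carcinoma (HNSCC) line that all groups share. The 3 vehicle tumors had received DMSO and 3 treated tumors an experimental agent that their labels do not name further, both by injection into the tumor 24 h before cells were taken. Live cells were sorted, tagged by tumor and pooled in equal ratio for droplet sequencing from the 3' ends of transcripts. No label ties a tag or a barcode to a tumor, so the matrix was described as 1 pooled sample, with no comparison of treated with vehicle tumors and no test.

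In the transition, epithelial cells loosen their junctions and take on a motile, mesenchymal form. Snail, Slug (the product of Snai2), Zeb and Twist factors bind E-box sequences and are known as repressors of Cdh1, which encodes E-cadherin, the adhesion molecule of epithelial adherens junctions. Cdh2 encodes N-cadherin, the cadherin of many mesenchymal and neural cells, and Vim encodes vimentin, the intermediate filament protein of mesenchymal cells and leukocytes. Epcam encodes an epithelial adhesion glycoprotein that is widely used to mark carcinoma cells. In squamous carcinoma, intermediate states that hold epithelial and mesenchymal genes together are described alongside both ends.

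Promoters of 6 of the 10 genes were held in the RefSeq table (GRCm38.p6, 250 bases before to 50 bases after each start site). They were searched on both strands for CAGGTG, an E-box of the kind that Snail and Zeb factors bind, whose reverse complement is CACCTG. Epcam held 2 copies, the first bases of which lay 187 and 19 bases before the start site, and Snai1 held 1, at 126 bases before it. No copy lay in the windows of Twist1, Twist2, Vim or Zeb2. Of all 32851 promoters of the table, 20.2% held at least 1 copy and 2.88% held at least 2. The Epcam and Vim windows are shown because Epcam had the highest ratio between the carcinoma classes below while Vim, the usual mesenchymal marker, was within 2-fold in them. Epcam lies on chr17:87635729-87636028 and Vim on chr2:13574061-13574360, both on the plus strand, and the E-box is in capitals.
Epcam: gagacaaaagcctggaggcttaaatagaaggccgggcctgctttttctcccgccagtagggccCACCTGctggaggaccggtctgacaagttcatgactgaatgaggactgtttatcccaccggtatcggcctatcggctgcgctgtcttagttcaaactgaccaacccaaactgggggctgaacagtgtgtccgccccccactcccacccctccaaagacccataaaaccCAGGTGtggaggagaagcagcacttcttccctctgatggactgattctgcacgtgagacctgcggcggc
Vim: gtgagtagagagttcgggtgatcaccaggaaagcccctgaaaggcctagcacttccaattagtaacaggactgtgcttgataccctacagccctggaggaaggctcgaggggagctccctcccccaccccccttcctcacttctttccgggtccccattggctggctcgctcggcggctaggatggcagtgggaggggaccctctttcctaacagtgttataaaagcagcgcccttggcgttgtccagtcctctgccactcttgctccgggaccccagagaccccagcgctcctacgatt
A match describes letters in the window and not a bound site.

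The matrix held 14818 cells, of which 13768 passed a filter of at least 500 genes and under 15% mitochondrial counts, with a median of 8380 UMIs. Barcodes ended in a suffix from 1 to 6, called a barcode set here, and the sets held 7354560 to 38798439 gene UMIs. Within a set the same tag was the largest in almost every cell. It was so in 898 of 901 cells of set 3, 1515 of 1516 of set 6 and all cells of the other sets. Whether each set is 1 tumor, and which, is not given by the labels. No barcode was shared between sets. Carcinoma cells were gated by at least 1 UMI of Xist, no UMI of 4 Y-linked genes and no lineage marker beyond a small limit, since the hosts were male. Y-linked genes summed to 179 to 285 CPM in the leukocytes of the 6 sets. Of 7757 gated carcinoma cells, 1842 held at least 1 UMI of the epithelial keratins Krt7 or Krt19 and are called epithelial, and 5915 held none and are called mesenchymal. The epithelial check markers that were not used to gate summed to 1957 CPM in the first and 603 CPM in the second, with none of the 11 at 0 in either. Among leukocytes taken by at least 5 leukocyte UMIs and no Xist, with no keratin gate, 1.34% held a Krt7 or Krt19 UMI at a median depth of 2957 UMIs. Thinned to 2000 UMIs per cell, the share was 0.801% of leukocytes and 11.01% of carcinoma cells. A further 3133 cells met no gate and are left out, 1890 of them with no Xist or Y-linked UMI and no more than 1 leukocyte UMI.

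Barcode set 3 stood apart. Of its 342 carcinoma cells 86.0% were keratin-positive, against 15.9 to 34.6% in the other 5 sets, and the main ratios, strata and cluster shares are given with and without it. Fibroblast markers also moved with the gate, with a summed level of 1526 CPM in epithelial and 4319 CPM in mesenchymal carcinoma cells beside 64504 CPM in gated fibroblasts, and none of the 11 at 0. Their part in the differences was not tested.

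Between epithelial and mesenchymal carcinoma cells, the adhesion genes Cdh1 and Epcam differed by far more than the 6 transcription factors. Both were at least 2-fold higher in epithelial cells, 2 of the 10 genes, where 3.75% of 13260 genes with at least 50 UMIs were. No transcription factor, and neither Cdh2 nor Vim, was at least 2-fold lower (0 of 10, against 3.27% of all genes), and 8 of 10 lay within 2-fold, where 7.02% of all genes lay beyond it. The count of 0 depends on the class limits, as 3 of 10 were at least 2-fold lower with at least 2 keratin UMIs, with thinned cells or with clusters as classes, and 2 with the mean over cells. In each of these settings the count of all genes at least 2-fold lower also rose above the 434 of the main gate. Those counts are given in the last section, without the share of genes tested. The median fold of the 10 genes was 0.791, against 0.975 over all genes. Each of the 6 factors was nonetheless lower in epithelial than in mesenchymal cells in 6 of 6 barcode sets.

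Cdh1 (chromosome 8, 106603351 to 106670246, mm10) stood at 46.7 CPM in epithelial cells (95% Poisson interval 44.2 to 49.3, 1330 UMIs) and at 1.66 CPM in mesenchymal cells (1.38 to 1.99, 118 UMIs), a ratio of 28.1 (23.3 to 34.2). Intervals cover counting error only and not the spread between tumors. Across sets 1 to 6 its epithelial level was 5.34, 35.5, 188, 22.3, 19.4 and 45.3 CPM. Its mesenchymal level was 0.800, 1.06, 46.3, 1.17, 2.41 and 1.35 CPM in the same order. Set 3 was the highest in both classes, and the other 5 sets had mesenchymal levels below every epithelial level. Without set 3 the ratio was 18.1.

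Epcam (chromosome 17, 87635979 to 87651129) stood at 134 CPM in epithelial cells (129 to 138) and at 1.25 CPM in mesenchymal cells (1.01 to 1.54), a ratio of 107 (86.3 to 133). Its epithelial level was 9.18, 115, 528, 90.9, 37.2 and 92.9 CPM in sets 1 to 6. Its mesenchymal level was 0.514, 1.27, 54.8, 1.22, 0.618 and 0.961 CPM. The ratio was above 1 in all 6 sets, from 9.65 to 96.6, and was 80.6 without set 3. Set 3 again held the highest level in both classes, although its mesenchymal class was only 48 cells.

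Of the Snail family, Snai1 (chromosome 2, 167538195 to 167542814), which encodes Snail, was at 25.4 CPM in epithelial and 43.1 CPM in mesenchymal cells, 1.70-fold lower (1.56 to 1.84). Its epithelial level in sets 1 to 6 was 20.5, 40.8, 12.8, 27.5, 21.5 and 19.1 CPM, and its mesenchymal level 38.8, 53.6, 29.5, 46.6, 38.1 and 40.2 CPM. The ranges of the classes overlapped across sets, while each set had the lower value in its epithelial cells. Snai2 (chromosome 16, 14705852 to 14709385) was at 15.8 against 29.35 CPM, 1.86-fold lower (1.68 to 2.07). Its epithelial levels ran from 6.51 CPM in set 3 to 22.1 CPM in set 6, and its mesenchymal levels from 21.1 CPM in set 3 to 32.5 CPM in set 6.

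Of the Twist family, basic helix-loop-helix factors of mesoderm, Twist1 (chromosome 12, 33957671 to 33959829) differed least, at 71.1 against 89.0 CPM, 1.25-fold lower in epithelial cells (1.19 to 1.32). Its epithelial level was 82.6, 73.5, 45.0, 75.6, 63.0 and 84.4 CPM in sets 1 to 6, beside 92.1, 78.2, 86.4, 96.9, 76.9 and 102.5 CPM in mesenchymal cells. The 2 classes lay close in every set but set 3. Twist2 (chromosome 1, 91801461 to 91848028) was at 100.6 against 185 CPM, 1.84-fold lower (1.77 to 1.92). Its epithelial range of 50.2 to 118 CPM over sets reached into the mesenchymal range of 114 to 206 CPM only through the low value of set 3 in the latter.

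The zinc finger homeobox genes Zeb1 (chromosome 18) and Zeb2 (chromosome 2, 44983632 to 45117395) differed in the same direction. Zeb1 was at 59.7 CPM in epithelial and 91.95 CPM in mesenchymal cells, 1.54-fold lower (1.46 to 1.63). Its epithelial level was 61.5, 67.8, 27.1, 58.4, 63.0 and 80.6 CPM in sets 1 to 6, and its mesenchymal level 88.2, 104, 67.4, 90.2, 91.2 and 94.2 CPM. Zeb2 was at 144 against 184 CPM, 1.28-fold lower (1.23 to 1.32), and its lowest epithelial value, 110 CPM, was in set 3. Over the pooled sets the 6 factors spanned 1.25-fold to 1.86-fold lower, and 1.18-fold to 1.71-fold lower without set 3.

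Cdh2 and Vim did not share a direction over sets. Cdh2 (chromosome 18) was at 29.8 CPM in epithelial and 32.5 CPM in mesenchymal cells, 1.09-fold lower (1.01 to 1.18), with 3 sets higher and 3 lower, and a ratio of 1.00 without set 3. In set 3 it was 12.2 against 37.9 CPM, while its epithelial levels in the other sets lay between 26.4 and 36.3 CPM. Vim (chromosome 2, 13573927 to 13582826) was at 3560 against 3152 CPM, 1.13-fold higher in epithelial cells (1.12 to 1.14). It was higher in 5 of 6 sets, and in set 3 it was at 2162 CPM in epithelial and 2694 CPM in mesenchymal cells. A Vim UMI was found in 96.3% of keratin-positive and 98.9% of keratin-negative cells, or in 92.1% and 96.9% after thinning.

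**Figure D1:**
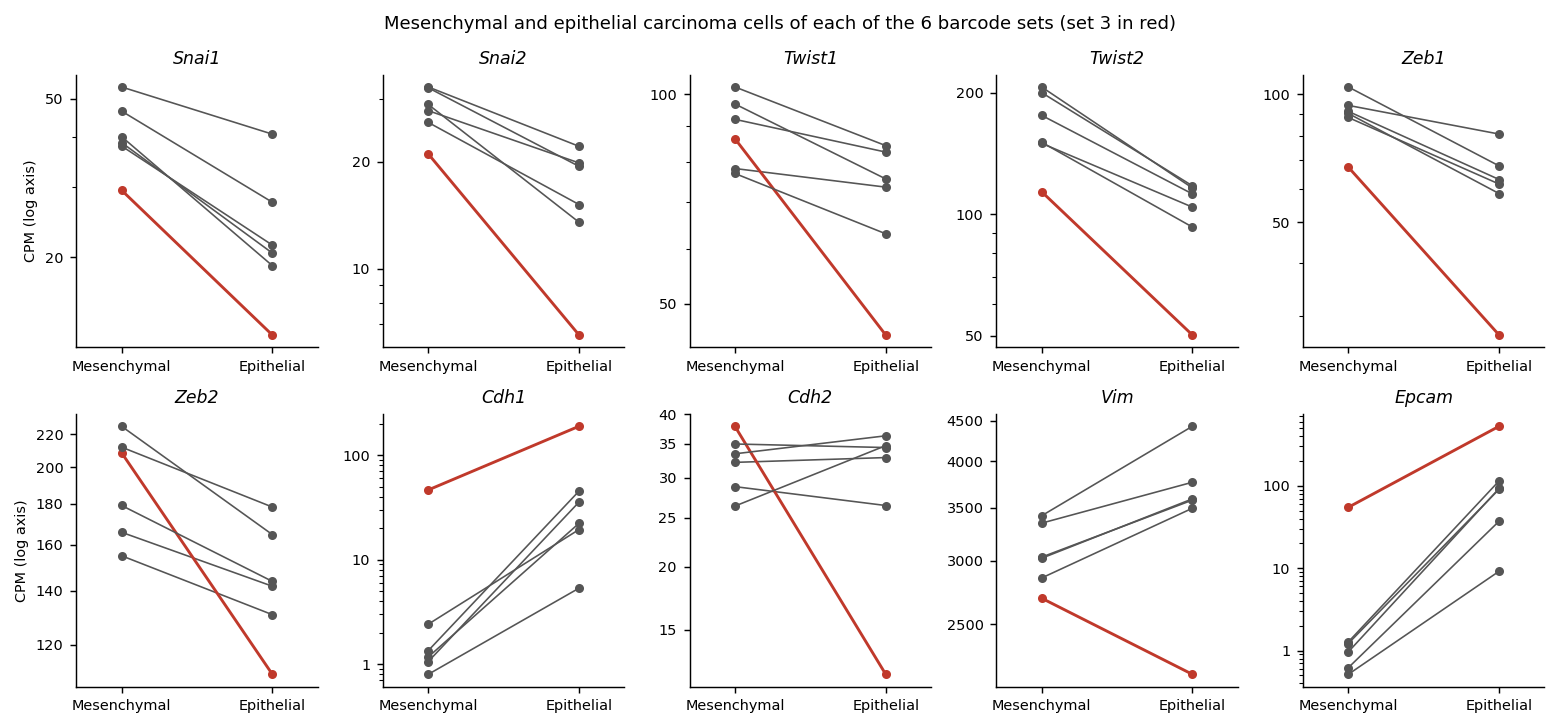
CPM (log axis) of each of the 10 genes in mesenchymal and epithelial carcinoma cells, 1 line per barcode set with set 3 in red. The lines of the 6 transcription factors go down and those of Cdh1 and Epcam go up in all 6 sets, while Cdh2 goes up in 3 sets and Vim in 5.

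The share of single cells with a UMI gave the same order for Cdh1 and Epcam. Cdh1 was detected in 20.2% of epithelial and 1.47% of mesenchymal cells, at median depths of 13803 and 10409 UMIs. After thinning to 2000 UMIs, which left out 11 and 160 cells, the shares were 9.23% (7.94 to 10.6%) and 0.434% (0.281 to 0.641%). For Epcam they were 17.7% and 1.12% before, and 11.8% and 0.295% after thinning. Gated fibroblasts, which should lack both, had a Cdh1 UMI in 2 of 298 cells and an Epcam UMI in 0 of 298 at a median depth of 6558 UMIs, and the exact 95% limit for the latter is 1.23%. The CPM of both genes in mesenchymal cells lay inside the intervals of fibroblasts, so those few UMIs are not told from background here, apart from the 48 mesenchymal cells of set 3.

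Most keratin-positive cells had neither adhesion gene detected. Of the 1842 epithelial cells, 448 held a Cdh1 or Epcam UMI and 1394 held neither, at median depths of 11517 and 14478 UMIs. In the 448 cells Twist2 was at 48.6 CPM, Zeb1 at 38.5 CPM and Snai1 at 13.7 CPM. In the 1394 cells they were at 115, 65.7 and 28.7 CPM. Vim was at 2306 CPM in the first and 3913 CPM in the second. The cells with keratin and no adhesion gene UMI had levels of these 3 factors between those of the adhesion-positive cells and of the keratin-negative class.

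Levels of 5 of the 6 factors were lower at each step up in keratin UMIs, and Twist1 was near level over the middle strata. Cells were divided by their Krt7 and Krt19 UMIs into none (5915 cells), 1 (669), 2 to 4 (537), 5 to 19 (441) and 20 or more (195), with median depths of 13707 to 14132 UMIs in the 4 positive strata and 10409 in the first. Cdh1 was at 1.66, 4.40, 12.8, 55.8 and 248.5 CPM in that order. Epcam was at 1.25, 3.30, 11.6, 106 and 917 CPM. Snai1 was at 43.1, 33.2, 25.3, 22.2 and 8.37 CPM. Each step of these genes lay in one direction, with Cdh1 and Epcam going up and Snai1 going down. Outside set 3 Cdh1 was at 1.36, 2.96, 8.42, 27.2 and 224 CPM and Epcam at 0.893, 1.23, 4.34, 45.1 and 910 CPM, lower in every stratum and still higher at each step.

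Among the other factors, Snai2 was at 29.35, 19.6, 17.7, 13.8 and 2.79 CPM, and Twist2 at 185, 123, 106, 93.9 and 31.6 CPM. Zeb1 was at 91.95, 72.0, 64.6, 49.7 and 29.7 CPM, and Zeb2 at 184, 163.5, 147, 142 and 76.2 CPM. Twist1 was at 89.0, 76.7, 75.0, 75.1 and 35.6 CPM. Outside set 3 Snai1 went from 43.2 to 11.6 CPM and Zeb1 from 92.1 to 39.5 CPM between the lowest and highest strata. Cdh2 and Vim were lowest in the top stratum but not graded below it. Cdh2 was at 32.5, 33.9, 36.6, 24.8 and 9.30 CPM, and Vim at 3152, 3605, 3923, 3738 and 2090 CPM.

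With 20 or more keratin UMIs against none, 2 of 10 genes were at least 2-fold higher (6.93% of 12805 genes) and 7 at least 2-fold lower (15.2% of these genes), with a median fold over all genes of 0.882. Snai2 was 10.5-fold lower (5.53 to 23.0), Twist2 5.86-fold, Snai1 5.15-fold, Cdh2 3.50-fold, Zeb1 3.09-fold, Twist1 2.50-fold and Zeb2 2.41-fold. Cdh1 was 149.5-fold higher (123 to 183) and Epcam 732-fold (593 to 914). Vim was 1.51-fold lower. Set 3 gave 103 of the 195 cells of this stratum. Without it Cdh1 was 165-fold higher and 6 of the 10 genes were at least 2-fold lower. The share of all genes at least 2-fold lower without set 3 is not given here.

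**Figure D2:**
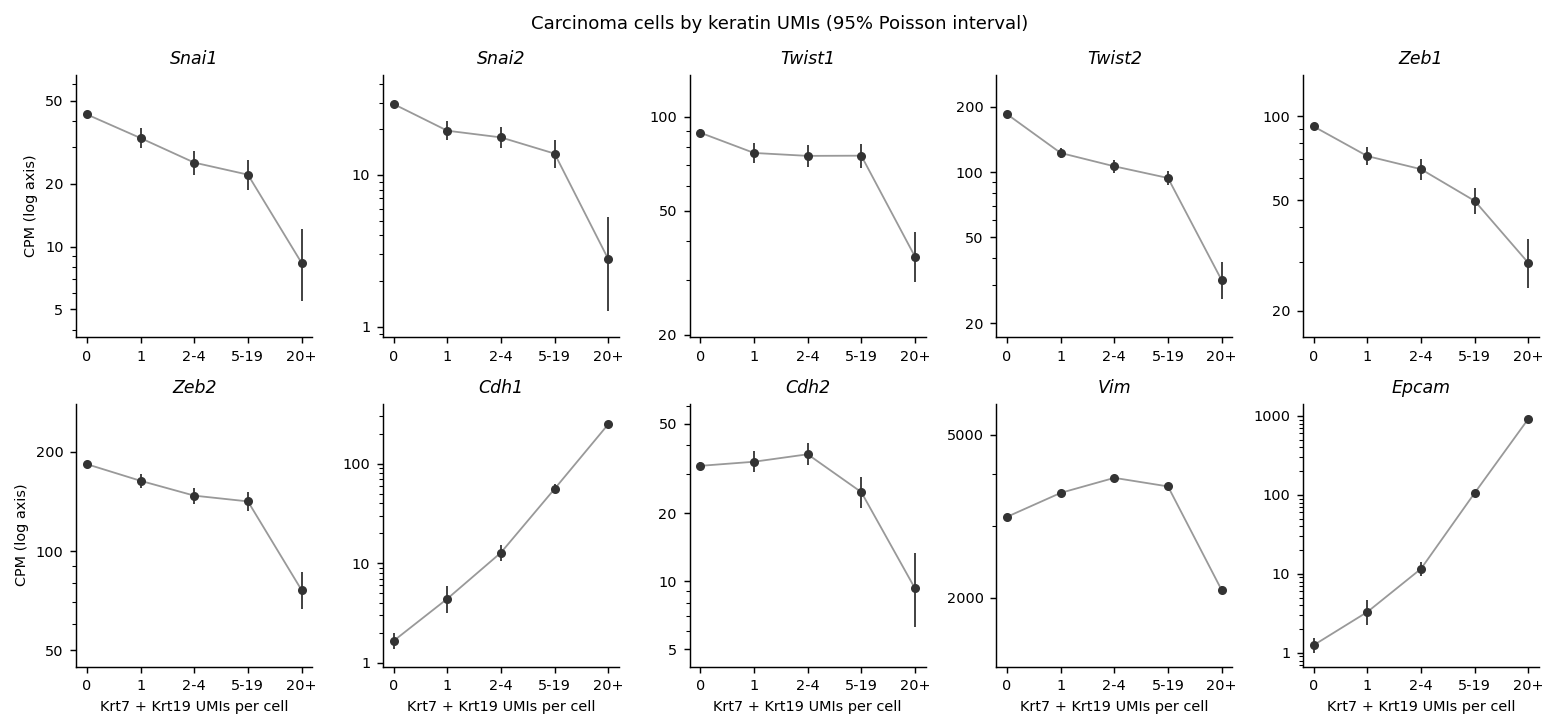
CPM (log axes of differing range) of the 10 genes in carcinoma cells with 0, 1, 2 to 4, 5 to 19 and 20 or more UMIs of Krt7 and Krt19, with 95% Poisson intervals. Cdh1 climbs from 1.66 to 248.5 CPM and Epcam from 1.25 to 917 CPM, the factors decline, and Vim peaks at 3923 CPM in the stratum of 2 to 4 UMIs.

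The balance of the 2 cadherins shifted along these strata. Of the UMIs of Cdh1 and Cdh2 together, Cdh1 made up 4.87% with no keratin UMI (exact 95% binomial interval 4.04 to 5.80%), 11.5% with 1, 25.9% with 2 to 4, 69.2% with 5 to 19 and 96.4% with 20 or more (94.9 to 97.6%). This share compares the strata and not the amounts of the 2 transcripts. The intervals of neighbouring strata did not overlap. Outside set 3 the shares were 4.03%, 7.97%, 18.5%, 48.6% (42.7 to 54.5%) and 95.1% (92.5 to 97.0%), so that Cdh1 and Cdh2 UMIs were about even with 5 to 19 keratin UMIs.

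Clustering without the 10 genes and the lists of related genes put the carcinoma cells into 12 clusters. Krt7 and Krt19 were not on those lists and were not taken out, and both count in the epithelial naming rule. The clusters are therefore not independent of the keratin gate. The cut-offs by which clusters were named were chosen after the data were seen. A pair met the epithelial naming rule, an Epcam-Krt7 cluster of 641 cells, with Cldn7, Cldn4 and Krt19 among its leading genes, and a Krt5-Krt14 cluster of 59 cells, led by Krt5, Sfn, Krt6a and Krt14. The latter came almost wholly from 1 barcode set, with 53 of its cells from set 3, so a cell state and a property of that set cannot be told apart. It held 1718 CPM of Xist and 0 Y-linked UMIs. These clusters held 468 of the 1842 keratin-positive cells, or 25.4%, but 91.5% of their Cdh1 UMIs (89.9 to 92.9%) and 98.5% of their Epcam UMIs. Outside set 3 the same clusters held 14.5% of keratin-positive cells, 84.3% of their Cdh1 UMIs and 97.6% of their Epcam UMIs.

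In the 419 gated cells of the Epcam-Krt7 cluster, the adhesion genes and part of the mesenchymal set stood together. Cdh1 was at 205 CPM (192 to 218) and Epcam at 662 CPM (639 to 686). Vim was at 2326 CPM, Zeb1 at 50.1 CPM (43.9 to 56.9), Zeb2 at 114 CPM and Twist1 at 48.2 CPM (42.1 to 54.9). Fn1, the fibronectin gene and a usual mesenchymal marker, was at 2395 CPM, beside 709 CPM in keratin-negative cells. It was chosen after its value was seen, and most of the other mesenchymal genes leaned the other way. Between the gated epithelial and mesenchymal classes, 12 of 43 mesenchymal and matrix genes were at least 2-fold lower and 1 higher. Of all genes 3.27% were lower and 3.75% higher. Twist2 at 24.7 CPM (20.4 to 29.6) and Snai2 at 4.05 CPM (2.44 to 6.32) were low there. Gated T cells, NK cells and macrophages held 14.2 to 16.4 CPM of Twist2, T cells 4.56 CPM of Snai2 (1.48 to 10.6) and macrophages 2.57 CPM of Snai2 (1.28 to 4.60), while NK cells and osteoclast-like cells held 0 Snai2 UMIs, with limits of 3.50 and 2.93 CPM. The Snai2 interval of the cluster overlapped those of all 4 of these leukocyte classes, so Snai2 was not told from background here. The Twist2 interval overlapped those of T cells, NK cells and macrophages. It lay above those of osteoclast-like cells, at 3.97 CPM (1.29 to 9.27), and endothelial cells, at 3.38 CPM (0.0855 to 18.8). Whether Twist2 stood above background thus depends on the class taken. For Twist1 T cells, NK cells, macrophages and osteoclast-like cells held 3.18 to 9.12 CPM, well below this cluster.

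This cluster had at least 10 gated cells in 5 of 6 barcode sets. Its Cdh1 level ran from 151 CPM in set 5 to 334 CPM in set 6, and its Zeb1 level from 32.4 CPM in set 6 to 72.9 CPM in set 2. Set 3, with 200 of the 419 cells, was inside the range of the others for Cdh1, at 225.5 CPM, and for Zeb1, at 35.5 CPM. Vim lay between 1661 CPM in set 6 and 2795 CPM in set 2.

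The Krt5-Krt14 cluster held the adhesion genes with little of the Zeb genes, Twist1, Cdh2 or Vim. In its 49 gated cells Cdh1 was at 299 CPM (263 to 337) and Epcam at 742 CPM (686 to 802). Zeb1 and Cdh2 had 1 UMI each, at 1.16 CPM (0.0294 to 6.47). Vim was at 208 CPM (179 to 241), Zeb2 at 25.6 CPM, Twist1 at 8.13 CPM (3.27 to 16.8), Snai1 at 3.48 CPM and Fn1 at 16.3 CPM. Twist2 at 70.9 CPM (54.2 to 91.0) and Snai2 at 19.7 CPM (11.5 to 31.6) were above the Epcam-Krt7 cluster, with intervals that did not overlap. Zeb1, Zeb2, Twist1 and Snai1 were below it, also with intervals that did not overlap. The 2 epithelial clusters thus differed in which of the 6 factors they held.

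Another 429 keratin-positive cells lay in a cluster led by the hypoxia-related genes Ero1l, Bnip3 and Ankrd37 together with the placental hormone genes Prl2c3 and Prl2c2. Of all 917 cells of that cluster 56.9% held a keratin UMI, yet in its gated epithelial cells Cdh1 was at 8.09 CPM and Epcam at 3.51 CPM, with Vim at 4394 CPM. The remaining 945 keratin-positive cells lay in other clusters, with Cdh1 at 3.66 CPM, Epcam at 2.01 CPM, Zeb1 at 68.5 CPM and Twist2 at 124 CPM. Most cells with a Krt7 or Krt19 UMI thus lay outside the 2 clusters that held Cdh1 and Epcam.

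**Figure D3:**
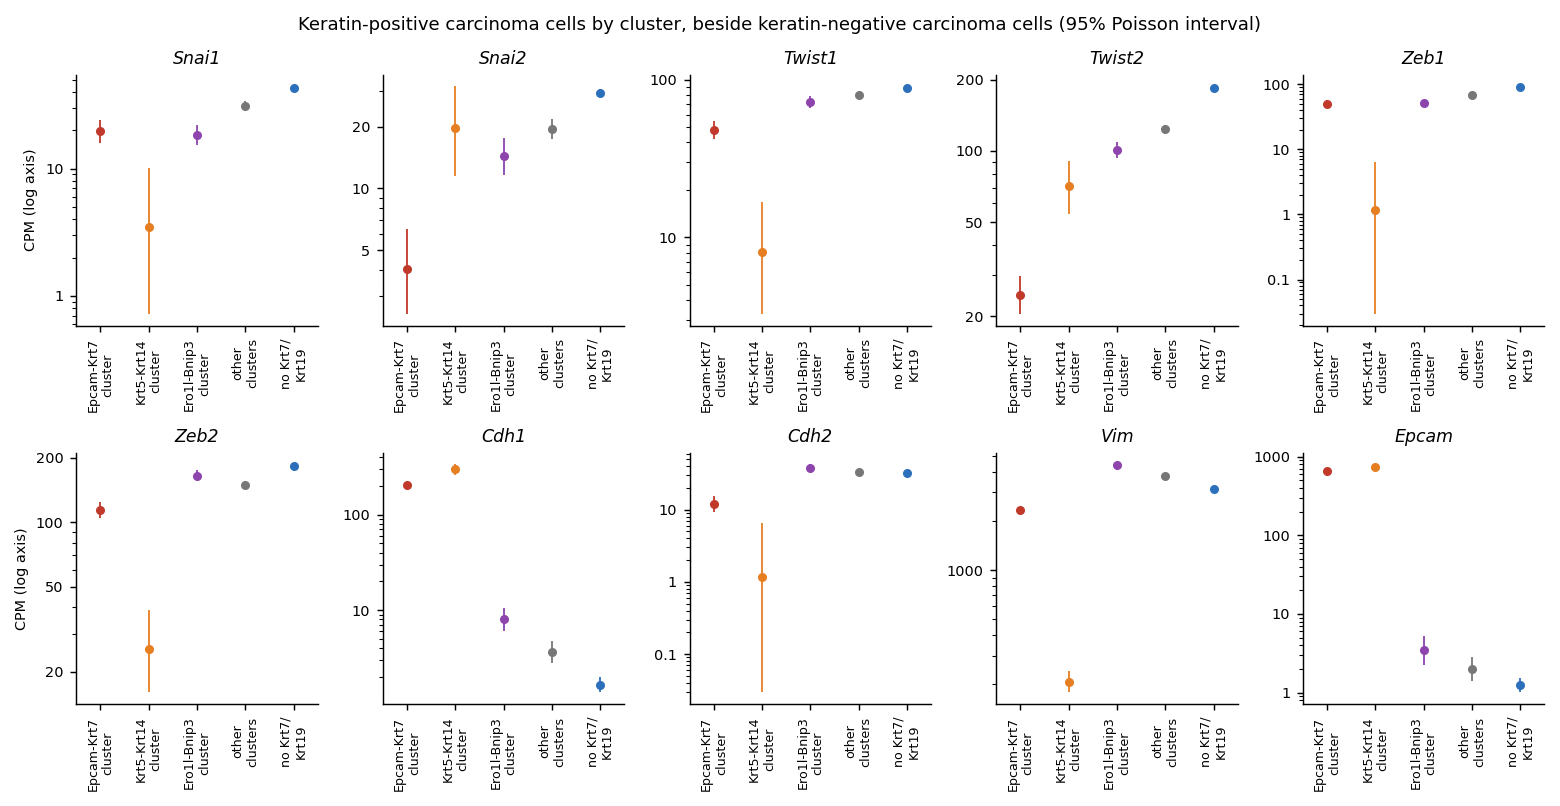
CPM (log axes of differing range) with 95% Poisson intervals in gated keratin-positive cells of the Epcam-Krt7 cluster (419 cells), the Krt5-Krt14 cluster (49), the Ero1l-Bnip3 cluster (429) and all other clusters (945), beside keratin-negative carcinoma cells (5915). Cdh1 and Epcam are high in the first pair alone among these 5 groups, and Zeb1, Cdh2 and Vim are lowest in the Krt5-Krt14 cluster.

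UMIs of adhesion genes and of mesenchymal genes were found in the same droplets. In the Epcam-Krt7 cluster 295 gated cells had a Cdh1 or Epcam UMI, at a median depth of 9901 UMIs. Of these 86.1% also had a Vim UMI (81.6 to 89.8%), 56.9% a Zeb1 or Zeb2 UMI (51.1 to 62.7%), 38.3% a Twist1 or Twist2 UMI and 7.12% a Cdh2 UMI. In the Krt5-Krt14 cluster the 49 such cells, at a median of 14510 UMIs, had Vim in 51.0% (36.3 to 65.6%), Zeb1 or Zeb2 in 24.5% (13.3 to 38.9%) and Twist1 or Twist2 in 61.2%. Over both clusters without set 3, 64.9% of 148 cells had a Zeb1 or Zeb2 UMI and 93.9% a Vim UMI. Shares in leukocytes were taken at lower depth. NK cells, at a median of 2987 UMIs, had Vim in 51.4% and Zeb2 in 20.1% of cells, and both genes are known in leukocytes. T cells, NK cells and macrophages had Twist1 in 1.41 to 1.85% and Twist2 in 2.83 to 4.23%, and macrophages had Zeb1 in 3.17%. The part of free RNA and of droplets with 2 carcinoma cells in these shares was not tested.

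Within the stratum of 5 to 19 keratin UMIs, Epcam was detected in 10.8% of cells with a Zeb1 UMI (6.69 to 16.1%) and in 38.0% of cells without one (32.1 to 44.3%). With and without a Zeb2 UMI the shares were 16.7% (12.8 to 21.2%) and 53.4% (44.0 to 62.6%). These strata mix clusters, as 178 of the 441 cells lay in the 2 epithelial clusters. Within those clusters Epcam was detected in 28.8% of 52 cells with a Zeb1 UMI (17.1 to 43.1%) and 66.7% of 126 cells without one (57.7 to 74.8%), at median depths of 11422 and 8117 UMIs. For Zeb2 the shares there were 42.3% (32.3 to 52.7%) and 71.6% (60.5 to 81.1%), and for Twist1 44.8% (31.7 to 58.5%) and 60.8% (51.5 to 69.6%). The intervals overlapped for Twist1 but not for Zeb1 or Zeb2. For all 3 genes the cells with a UMI of the factor were the deeper ones by median. A given number of keratin UMIs is a smaller share of a deeper cell. The part of depth in these differences was not tested. The 178 cells still mix the 2 epithelial clusters, as 25 of them lay in the Krt5-Krt14 cluster. Of its 49 gated cells 98.0% had an Epcam UMI, 2.04% a Zeb1 UMI and 24.5% a Zeb2 UMI. The part of this mix in the differences was not tested. Outside set 3, over all clusters, Epcam was detected in 8.50% of cells with and 21.2% without a Zeb1 UMI. With 20 or more keratin UMIs, intervals within the epithelial clusters overlapped for all 3 genes. No test of these differences was made.

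The factors also varied among the mesenchymal carcinoma clusters. Of 10 such clusters, 1 of 216 cells had 158 CPM of Malat1, a nuclear RNA, against 7006 CPM or more in the other 9, and 16.8 CPM of Xist, and it held the lowest level of all 6 factors. The part of its RNA content in these levels was not tested. Over the other 9 clusters the highest level was 2.88 times the lowest for Snai1, 3.42 for Snai2, 1.85 for Twist1, 2.37 for Twist2, 2.58 for Zeb1 and 1.96 for Zeb2. The Ero1l-Bnip3 cluster, where 56.9% of cells held a keratin UMI, is among these 9. It held the lowest level of Snai1, Twist2 and Zeb1, so those ratios also hold a part of the keratin contrast. Snai1 (62.4 CPM), Snai2 (51.5 CPM) and Zeb2 (249 CPM) were highest in a cluster led by the stress and immediate-early genes Hspa1a, Hspa1b and Fos. That cluster also had the highest median mitochondrial share (5.73%), the highest Malat1 (35862 CPM) and the lowest median depth (4711 UMIs) of the 10, and their part in these levels was not tested. Twist1 (121 CPM) and Twist2 (274 CPM) were highest in a cluster led by the matrix genes Fibin, Lum and Fbln5. Zeb1 was highest, at 143 CPM, in a cluster led by Ptn, Enpp2 and Itm2a, and Cdh2, at 48.5 CPM, in one led by histone genes of S phase.

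Outside the carcinoma cells each gene had its own distribution over lineages. Gates of at least 50 cells were compared: fibroblasts (298 cells), pericytes (58), endothelial cells (51), macrophages (1515), osteoclast-like cells (136), dendritic cells (53), T cells (389) and NK cells (284). Each held all of its own marker genes, which is no independent check, since vessel cells and leukocytes were gated by these same markers. Fibroblasts were gated by Col1a2 and Postn alone among theirs.

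Snai1 was highest in endothelial cells, at 122 CPM (85.1 to 168), followed by fibroblasts, at 80.1 CPM (68.4 to 93.4), whose intervals overlap. Both were above mesenchymal carcinoma cells at 43.1 CPM, while T cells held 1 UMI. Snai2 was at 36.3 CPM in pericytes (18.8 to 63.4) and 22.3 CPM in fibroblasts (16.4 to 29.8), and both intervals overlapped that of mesenchymal carcinoma cells. Its UMIs were 0 in osteoclast-like, dendritic and NK cells, with exact 95% limits of 2.93, 17.8 and 3.50 CPM.

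Twist1 and Twist2 parted between the stromal lineages. Twist1 was at 200 CPM in pericytes (154 to 254) and 189 CPM in fibroblasts (171 to 209), which do not differ beyond counting error, and it was above the 89.0 CPM of mesenchymal carcinoma cells. Twist2 was at 383 CPM in fibroblasts (357 to 410) and only 27.2 CPM in pericytes (12.5 to 51.7). Endothelial cells held 0 UMIs of Twist1 and 1 UMI of Twist2.

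Zeb1 and Zeb2 parted between lineages in another way. Zeb1 was highest in endothelial cells, at 159 CPM (117 to 211), and was at 94.8 CPM in T cells (77.5 to 115) and 74.0 CPM in NK cells, and lowest in macrophages, at 16.6 CPM (13.0 to 20.9). Zeb2, a regulator of macrophage and NK cell development, was highest in macrophages, at 1072 CPM (1041 to 1103), and in pericytes, at 914 CPM (814 to 1023), and lowest in endothelial cells, at 23.6 CPM (9.50 to 48.7). The Zeb2 level of macrophages was 1028 to 1212 CPM over the 6 sets. Epithelial carcinoma cells, at 144 CPM, lay near T cells (155 CPM) and dendritic cells (140 CPM), with overlapping intervals.

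Cdh1 was not restricted to epithelial carcinoma cells. Dendritic cells held 72.2 CPM (40.4 to 119) from 15 UMIs in 5 of 53 cells, which overlaps the interval of epithelial carcinoma cells, and E-cadherin is known from Langerhans cells, a dendritic cell of the skin. A cluster of 189 cells led by Ccr7 and H2-Eb1 held 98.1 CPM of Cdh1 from 64 UMIs. Macrophages held 14.3 CPM (10.9 to 18.3), with 9.31 CPM (6.24 to 13.4) where a C1q UMI was found and 27.5 CPM (18.8 to 38.8) where none was. Over the 6 barcode sets the macrophage level ran from 5.92 to 61.4 CPM. It was highest in set 2, which gave 23 of the 61 UMIs. Of the Cdh1 and Epcam UMIs of macrophages 92.4% were Cdh1 (83.2 to 97.5%), and of dendritic cells 88.2% (63.6 to 98.5%). In epithelial carcinoma cells the share was 25.9% (24.7 to 27.1%), and in T cells it was 22.7% (7.82 to 45.4%). NK cells had 55.6% (30.8 to 78.5%) and mesenchymal carcinoma cells 57.005% (50.0 to 63.8%). The intervals of macrophages, dendritic cells and NK cells thus did not overlap that of epithelial carcinoma cells, and that of T cells did.

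Cdh2 was highest in pericytes, at 45.4 CPM (25.4 to 74.9), which overlaps carcinoma cells of both classes, and was at 24.3 CPM in fibroblasts. T cells, NK cells, dendritic cells and osteoclast-like cells held 0 UMIs of it. Vim was at 3574 CPM in osteoclast-like cells and 3560 CPM in epithelial carcinoma cells, with overlapping intervals, at 1588 CPM in fibroblasts and at 338 CPM in NK cells. Among gates of at least 50 cells outside the carcinoma, Epcam was highest in T cells, at 15.5 CPM (9.03 to 24.8), from 17 UMIs in 16 of 389 cells. That interval overlapped those of dendritic, NK and osteoclast-like cells, pericytes and endothelial cells. Fibroblasts and endothelial cells held 0 Epcam UMIs. A cluster of 35 cells led by Ighm and Igkc held 52.5 CPM of Epcam (22.7 to 104) from 8 UMIs. The cluster led by Ccr7 and H2-Eb1 held 16.9 CPM.

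**Figure D4:**
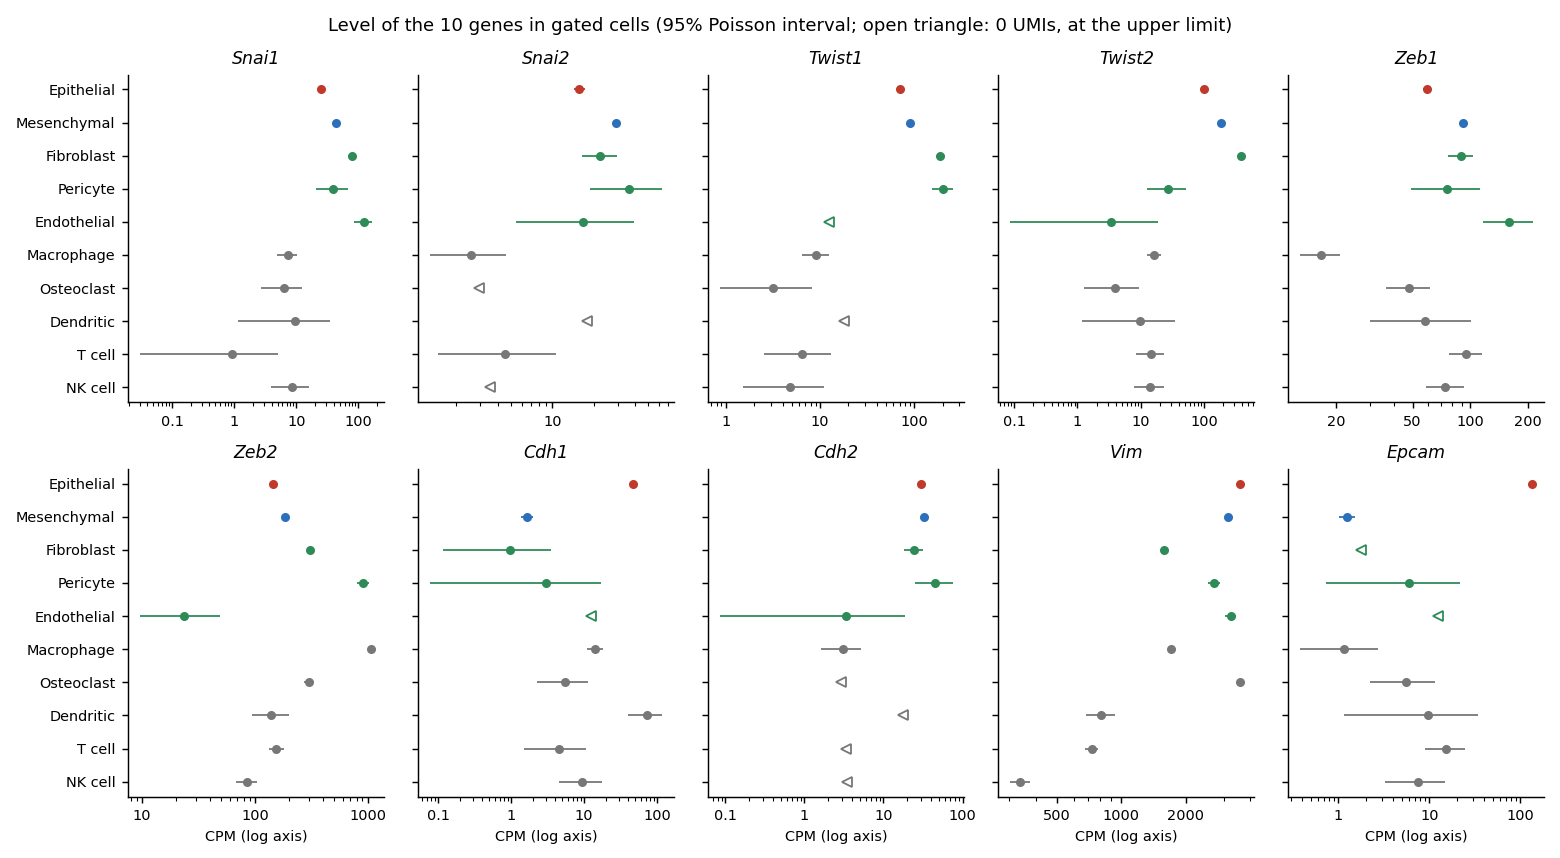
CPM (log axes of differing range) of the 10 genes in 10 gated cell classes with 95% Poisson intervals, with open triangles at the upper limit where 0 UMIs were found. Zeb1 and Zeb2 take opposite orders in macrophages (16.6 and 1072 CPM) and endothelial cells (159 and 23.6 CPM).

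Genes related to the transition were described in lists beside the 10 genes. For comparison with the counts of each list, 3.75% of all genes tested were at least 2-fold higher and 3.27% at least 2-fold lower. Of 41 epithelial junction and adhesion genes with at least 50 UMIs, 37 were at least 2-fold higher in epithelial than in mesenchymal carcinoma cells and 0 lower, with a median fold of 8.91. Lsr, of tricellular tight junctions, was at 13.7 against 0.155 CPM, 88.4-fold higher. The gap junction gene Gjb2 was 85.7-fold higher (36.0 to 267) and Rab25, a GTPase of epithelial vesicle recycling, 73.9-fold. Of the 37 genes, 22 had promoters in the RefSeq table, and 17 of these genes held CAGGTG or CACCTG in at least 1 promoter. By promoters these were 20 of 30, or 66.7%, beside 20.2% of all promoters of the table. The 37 genes were picked by their fold in these same data, and junction genes that were not higher are not given beside them. A part of E-box binding in the folds was not tested.

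Of 14 epithelial transcription and splicing regulators 8 were higher and 0 lower, with a median fold of 5.43. The splicing regulator Esrp1 was 109-fold higher (46.1 to 340), and Grhl2, a grainyhead factor of epithelial cells, 54.0-fold (17.7 to 269, with 3 UMIs in mesenchymal cells). Elf3, an epithelial ETS factor, was at 26.3 against 0.775 CPM, 34.0-fold higher. Among 17 intermediate filament genes other than Vim, Krt7 and Krt19, 11 were higher and 0 lower, with a median fold of 2.69. Krt17, Krt5 and Krt14, keratins of basal and stressed squamous cells, were 125-fold, 102-fold and 20.4-fold higher.

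Mesenchymal and matrix genes leaned the other way, with 12 of 43 lower, 1 higher and a median fold of 0.638. Cdh11, the osteoblast cadherin gene, was 7.51-fold lower (5.29 to 11.01), Thy1, a surface marker of fibroblasts, 5.98-fold, and Fap, a protease of activated fibroblasts, 5.07-fold, while the collagenase gene Mmp13 was 2.12-fold higher. Of 34 other transcription factors linked to the transition 4 were lower and 2 higher, with a median fold of 0.889. The share higher, 5.88%, lay near the 3.75% of all genes. Tbx2, Tbx3 and Id3 were 2.78-fold, 2.25-fold and 2.09-fold lower, and Foxq1 and Sox11 were 3.52-fold and 2.02-fold higher. Of 28 other cadherins and catenins 5 were higher and 3 lower, with a median fold of 0.939. Fat2 and Cdh3, the P-cadherin gene of basal epithelium, were 19.9-fold and 17.9-fold higher and Celsr1 3.66-fold, whereas Cdh5 of endothelial junctions was 3.20-fold and Dchs1 2.01-fold lower.

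**Figure D5:**
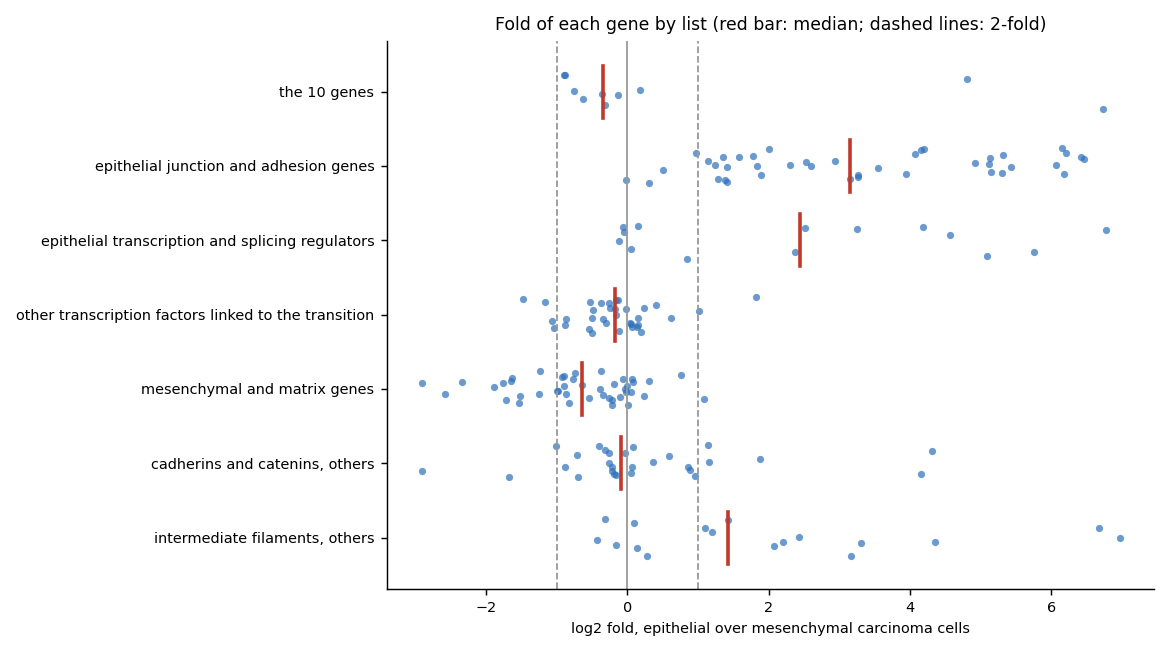
Log2 fold of each gene with at least 50 UMIs, epithelial over mesenchymal carcinoma cells, by list, with the median of each list as a red bar and 2-fold as dashed lines. The junction genes lie almost wholly to the right, with a median fold of 8.91, and 8 of the 10 genes lie between log2 folds of -0.90 and 0.18, apart from Cdh1 and Epcam at 4.81 and 6.74.

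Genes with the most similar pattern over the 10 gates were sought by the Pearson correlation of log2(CPM + 5), among genes with at least 200 UMIs. The points are sums over cells of 1 pooled library and share its depth and free RNA, so the values describe these 10 classes only. For Twist1 they were Bmpr1a (r = 0.995), Col6a1 (0.991) and Prrx1 (0.986), and for Twist2 Ereg (0.984), Smoc2 (0.976) and Fzd2 (0.970). Snai2 was closest to Rabl2 (0.985), Ash1l and Cald1, Snai1 to Stk25 (0.970), Fat4 and Pcdhb17, and Cdh2 to Cacna2d1 (0.986), Pard3 and Fhl1. Zeb1 was closest to Trim23 (0.940), Csnk1g2 and Fam160b1, and Vim to Msantd4 (0.962), Lmna and Dstn. The least close neighbours were those of Zeb2, namely Dmxl2 (0.884), Slc35f6 and Nptn, and of Cdh1, namely Mob3b (0.845), Dnase1l3 and Lsr. Epcam was closest to Prom1 (0.918), Ly6g and Dsg2.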

How the data were processed

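Live cells of 6 tagged tumors were sequenced in 1 pool. What the authors deposited is a single matrix, raw UMI counts for 32285 genes and 12 multiplexing tags in 14818 cells. The submitters' processing notes name Cell Ranger 7.1, Seurat and build mm10, the series text gives Seurat as 4.1.0, and the header of the matrix gives Cell Ranger 7.0.0. Filters on cells before deposit are not given in the sources used here.

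The 10 genes, the lists and the gate markers were chosen with earlier results of these data known, and the cut-offs of the gates after the data were seen. Gates used raw counts. Carcinoma cells needed at least 1 Xist UMI, no Y-linked UMI, at most 1 UMI of Ptprc, Laptm5 and Coro1a, under 5 UMIs of Col1a2 and Postn, and no vessel gate. Host cells had no Xist, Krt7 or Krt19 UMI. Fibroblasts had at least 5 UMIs of Col1a2 and Postn, vessel cells at least 5 UMIs from at least 3 markers, and leukocytes at least 2 leukocyte UMIs and the most distinct markers of 1 class, at least 2. Cells that met the limits of more than 1 lineage met no gate, except pericytes, which could hold any number of Col1a2 and Postn UMIs. Gated pericytes held 20284 CPM of the fibroblast markers. Leukocytes could hold fewer markers of another leukocyte class. No doublet caller was run, so doublets within a lineage may remain.

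Counts were summed per class and divided by the class total (CPM). Intervals are exact 95% Poisson intervals, exact conditional intervals for ratios and exact binomial intervals for shares. Genes with at least 50 UMIs over both carcinoma classes entered the folds, with 2-fold as the limit. The text names all 10 genes, up to 3 genes higher and 3 lower with the largest fold of at least 2 in each list, and the 3 most correlated genes of each member. The genes that name clusters, Fn1 and Malat1 were chosen after their values were seen. For clusters, 40 principal components of 2931 variable genes, without the 10 genes and the lists, gave a graph of 15 neighbours, which the Leiden method (leidenalg 0.10.2, resolution 1) divided into 24 clusters. An epithelial cluster had at least 2 epithelial markers among its 10 leading genes and at least 3 at 2-fold or more over the other cells. Krt7 and Krt19 were among these markers. Positions are from GENCODE M21. Python 3.11.15, numpy 2.4.6 and scipy 1.17.1 were used, and the level, ratio and thinning steps were tested on simulated data.

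The planned test of treated against vehicle tumors was not run, because the cells could not be tied to labelled tumors. Alternatives covered the cell filter, the keratin gate, thinning, the Xist gate, the tag purity, the averaging, the barcode sets and clusters in place of gates. The keratin strata without barcode set 3, and Epcam detection within the epithelial clusters, were added after the data were seen.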

Additional observations from a re-analysis of the deposited data

How the results depend on the processing

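No paired analysis was possible because no label ties cells to the tumors, so no test of treated against vehicle tumors was made, and its alternatives (edgeR, DESeq2, a replicate block, no filter, and leaving out replicates) were not run. Under 14 other settings of filters, gates, averaging and barcode sets the 6 factors, Cdh1 and Epcam kept their direction in 14, and Cdh2 and Vim in 13. The count of the 10 genes at least 2-fold higher stayed at 2, and the count at least 2-fold lower, 0 as reported, was 3 with at least 2 keratin UMIs, 3 with cells thinned to 2000 UMIs, 2 with the mean over cells and 3 with clusters as classes. Alternatives added after the data were seen gave 6 with epithelial clusters only, 7 with at least 20 keratin UMIs and 6 with that gate without barcode set 3. The Cdh1 ratio, 28.1 as reported, was 41.9 with at least 2 keratin UMIs, 37.4 with thinned cells, 19.96 with the largest tag at 90% or more of tag counts and 91.6 with clusters. Added later, it was 132 with epithelial clusters only, 149.5 with at least 20 keratin UMIs and 165 with these and without barcode set 3. Leaving out 1 barcode set at a time gave 18.1 to 35.8. Counts of all genes at least 2-fold higher and lower, 497 and 434 as reported, were 1102 and 1390 with clusters, 943 and 1544 with epithelial clusters only and 887 and 1945 with at least 20 keratin UMIs. With at least 2 keratin UMIs, thinned cells, no Xist gate and the mean over cells, the lower count was 679, 807, 659 and 718. The cause of these changes was not tested. The class with the highest level was the same for 8 to 10 of the 10 genes under each alternative in which it was computed. It was not computed for the settings that use clusters. Depth limits the classes of 51 and 53 cells, where 0 UMIs allow up to 12.5 and 17.8 CPM.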
